A study of Mus musculus with 9 samples.

Results

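The genes described here carry out DNA replication or are expressed for S phase, the stretch of the cell cycle in which the genome is copied. They were chosen by name as a set of 39 genes, and 38 of them had at least 1 probe set carrying their symbol alone, out of 18193 genes measured that way. *Chaf1a* had no such probe set and is not analysed here. The cells were MC3T3-E1 preosteoblasts, an immortal mouse line derived from newborn C57BL/6 calvaria, the flat bone of the skull roof. All of them were grown for 14 days in medium with ascorbic acid and β-glycerophosphate, seeded again, and kept for a further 24 h before treatment. The treated cells then received low-intensity pulsed ultrasound (LIPUS), a mechanical stimulus used in the clinic on healing fractures, at 30 mW/cm2 and 1.5 MHz for 20 min, and RNA was taken 6 h or 24 h later. The control cells were mock-treated. Each of the 3 groups had 3 arrays, numbered 1 to 3, and arrays of the same number are treated here as 1 experiment. The comparisons asked which transcripts were higher or lower at each time after LIPUS.

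Replication is prepared in G1, when Cdc6 and Cdt1 help to load the ring-shaped Mcm2 to Mcm7 helicase onto replication origins, a step called licensing. In S phase Cdc45 and the GINS complex join the ring and switch it on, primase and DNA polymerase alpha lay down the first primers, the Rfc clamp loader places the sliding clamp Pcna on DNA, and Fen1 and Lig1 finish and seal the lagging strand. The genes for these proteins are classic targets of E2F transcription factors, and their mRNAs rise together as proliferating cells enter S phase. Osteoblast precursors divide before they mature, and proliferation genes are known to decline as they differentiate. The arrays measured RNA from whole cultures, so fewer cells in S phase and less of these RNAs per cell cannot be told apart.

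At 24 h, 3 of the 38 genes were lower than in the control by limma with Benjamini-Hochberg adjustment, and none was higher. They were *Lig1*, *Prim1* and *Pcna*, and they encode a DNA ligase, the catalytic subunit of primase and the sliding clamp. The share was 7.89%, against 1.57% of all genes, 0.933% of all probe sets and 1.86% of the probe sets brighter than the median called lower in the same comparison. Of all probe sets, 1.80% were called higher. The changes were small. *Lig1* fell to 0.852-fold of the control, *Prim1* to 0.874-fold and *Pcna* to 0.913-fold. The other 35 genes did not pass the test, but 37 of the 38 log2 changes were below 0 (97.4%, against 49.2% of all genes), with a median of -0.11 against 0.00 over all genes. The exception was *Ccne1*, which encodes cyclin E1, at 0.04.

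The levels of these genes differed more between experiments than between groups. Between the 3 control arrays, the range of a gene's log2 level had a median of 0.446, and it was wider than the 24 h change in 37 of the 38 genes. The experiment number was a block in the fit, because the study took its ratios within experiments. Without that block, none of the 38 genes was called in any comparison. In experiments 2 and 3 many deposited values were exactly equal between arrays. The value at 24 h equalled the control's for 48.4% of all probe sets in experiment 2, 31.9% in experiment 3 and 1.26% in experiment 1, and among the 38 genes it did so for 3, 5 and 0. What these equal values did to the tests was not examined.

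**Figure D1:**
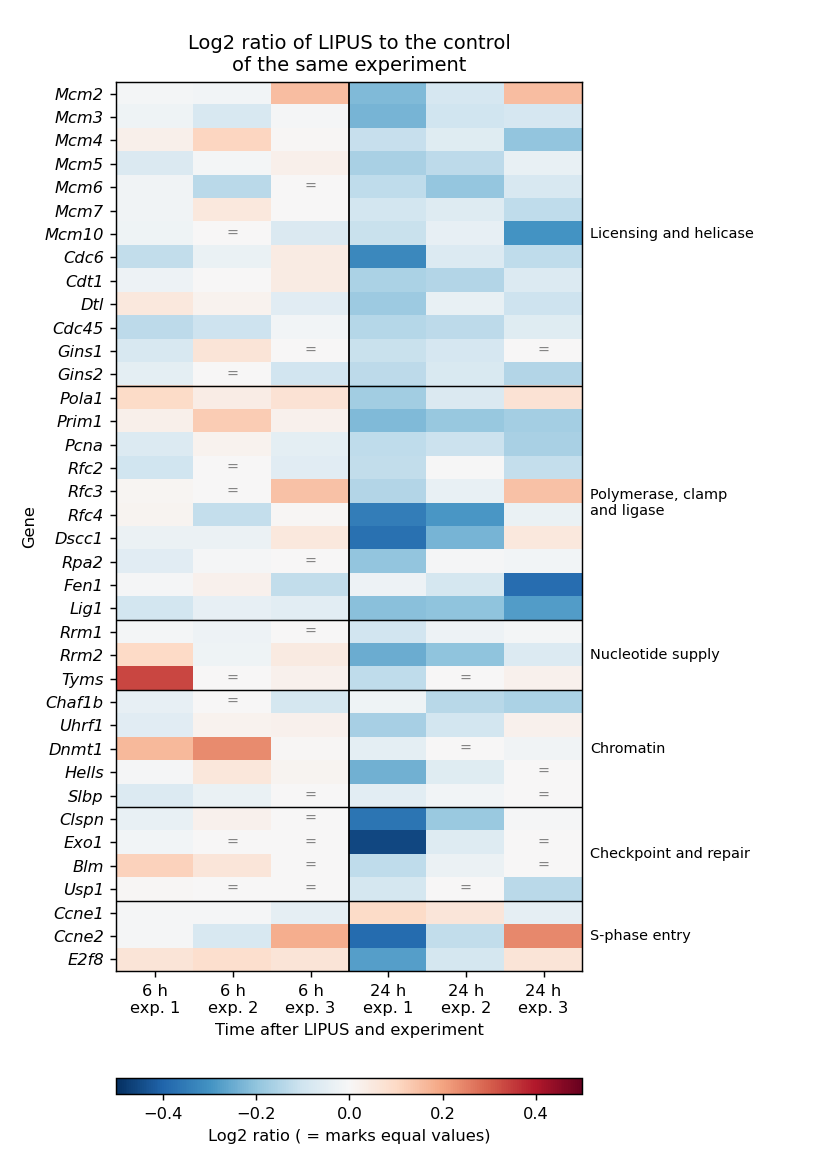
Log2 ratio to the control array of the same experiment for each of the 38 genes, at 6 h and 24 h in experiments 1 to 3, with blue for lower, red for higher and an equals sign where both arrays held the same value. At 24 h, 37 genes were lower in experiment 1, 34 in experiment 2 and 25 in experiment 3, while the ratios at 6 h ran in both directions.

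The promoters of *Lig1*, *Prim1* and *Pcna* are shown because these genes were called at 24 h. Those of *Mcm6*, *Dtl* and *Hells*, which did not pass the test, were picked as examples of windows that hold the E2F letters of this class of genes. RefSeq promoter windows (GRCm38.p6, 250 bases before to 50 after the transcription start) were at hand for 30 of the 38 genes. The letters searched on both strands were TTTCCCGC, TTTGGCGC, TTTCGCGC and TTTGCCGC for the E2F element, CCAAT for the CCAAT box, and TTTGAA or TTCGAA for the cell cycle homology region (CHR). In the lines below each sequence reads 5′ to 3′ along the gene, and capitals mark the E2F letters in *Lig1*, *Mcm6*, *Dtl* and *Hells* and the CCAAT letters, on either strand, in *Prim1* and *Pcna*.
Lig1, chr7:13278841-13278870, plus strand: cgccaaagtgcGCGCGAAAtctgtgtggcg
Prim1, chr10:128015115-128015214, plus strand: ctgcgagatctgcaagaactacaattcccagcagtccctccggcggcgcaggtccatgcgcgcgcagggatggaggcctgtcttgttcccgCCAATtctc
Pcna, chr2:132253181-132253280, minus strand: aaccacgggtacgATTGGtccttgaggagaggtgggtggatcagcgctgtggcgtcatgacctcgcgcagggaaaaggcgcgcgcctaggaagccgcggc
Mcm6, chr1:128359706-128359825, minus strand: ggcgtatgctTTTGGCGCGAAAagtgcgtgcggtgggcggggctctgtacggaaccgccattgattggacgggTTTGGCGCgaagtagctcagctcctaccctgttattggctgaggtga
Dtl, chr1:191575545-191575604, minus strand: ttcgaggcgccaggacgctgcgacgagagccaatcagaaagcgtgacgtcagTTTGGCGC
Hells, chr19:38930890-38930989, plus strand: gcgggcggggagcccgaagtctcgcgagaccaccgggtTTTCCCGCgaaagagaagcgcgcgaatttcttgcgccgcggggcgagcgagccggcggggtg

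The E2F letters were present in the windows of 14 of the 30 genes (46.7%), against 2.6% of 27025 genes with a window. *Mcm6* held 3 matches, of which a pair on opposite strands overlapped. By role, the letters were found in 7 of 10 licensing and helicase genes, 3 of 8 fork genes and 3 of 5 chromatin genes, and in none of the 3 nucleotide supply genes. The window of *Lig1* held them and those of *Prim1* and *Pcna* did not, so the called genes were on both sides of this split. The median 24 h change was -0.11 in the 14 genes with the letters and -0.10 in the 16 without. CCAAT stood in 70% of the genes' windows against 41.1% of all genes, and CHR letters in 23.3% against 21.7%. In 53 genes of G2 and M phase the order was different, with CHR letters in 77.4% and E2F letters in 5.66%. These are matches of letters in a window and not measured binding.

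The fork genes, which encode polymerase, clamp and ligation proteins, held all 3 calls at 24 h. The median log2 change of the 10 genes was -0.15, and all 10 changes were below 0. *Lig1* stood at 10.09, 9.99 and 9.99 on the log2 scale in the control arrays of experiments 1 to 3, at 10.00, 9.95 and 9.94 at 6 h, and at 9.88, 9.78 and 9.71 at 24 h. All 3 arrays at 24 h were below all 6 others, and *Lig1* was the only one of the 38 genes whose groups at 24 h and in the control did not overlap (0.792% of all genes were apart in this direction). Its log2 change was -0.23 ± 0.03 (SE, n = 3 experiments; 95% interval -0.30 to -0.16; limma, adjusted p = 0.0104).

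*Prim1* stood at 10.54, 10.74 and 10.23 in the control, 10.57, 10.87 and 10.25 at 6 h, and 10.32, 10.55 and 10.06 at 24 h. The array at 24 h was the lowest of its experiment each time, while the groups overlapped because experiment 2 ran higher and experiment 3 lower in every group. The within-experiment changes were -0.22, -0.19 and -0.17, with a mean of -0.19 ± 0.03 (limma, adjusted p = 0.0223). A second, separate probe set for *Prim1* changed by only -0.04 (limma, adjusted p = 0.921), and the call therefore rests on 1 of its probe sets. *Pcna* stood at 12.44, 12.54 and 12.38 in the control, 12.37, 12.55 and 12.33 at 6 h, and 12.31, 12.43 and 12.22 at 24 h. It too was lowest at 24 h in each experiment, with a log2 change of -0.13 ± 0.02 (limma, adjusted p = 0.0304). *Lig1* and *Pcna* had 1 probe set each.

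These 3 calls depended on the number of experiments and on the fit. Without experiment 1, and likewise without experiment 2, limma called none of the 38 genes, and without experiment 3 it called 6. In the last case *Lig1* and *Prim1* were still called, with *Cdt1*, *Rfc4*, *Dscc1* and *Rrm2*, while *Pcna* was not (limma, adjusted p = 0.103). The share of all genes called without experiment 3 was not taken. None of the 38 genes was called when only the 6 arrays compared were fitted or when the spread was not modelled as a trend with intensity. Neither of these settings alters the log2 changes themselves. With 1 experiment left out, the changes of *Lig1*, *Prim1* and *Pcna* stayed below 0, which follows from their decrease in each experiment.

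Among the remaining fork genes, *Rfc4* and *Dscc1*, which belong to clamp loader complexes, had log2 changes of -0.22 and -0.18, and *Fen1*, the flap endonuclease, had -0.16. None of these passed the test. The 3 experiments differed for them, since *Fen1* changed by -0.02, -0.09 and -0.38 and *Dscc1* by -0.37, -0.23 and 0.05. *Rfc3*, another clamp loader subunit, had the smallest change of the group. Its levels were 8.39, 8.54 and 7.98 in the control, 8.40, 8.54 and 8.12 at 6 h, and 8.25, 8.50 and 8.12 at 24 h, for a change of -0.01 (95% interval -0.14 to 0.12). It was lower at 24 h in experiments 1 and 2 and higher in experiment 3. The polymerase alpha subunit *Pola1*, the clamp loader subunit *Rfc2* and *Rpa2*, of the protein that coats single-stranded DNA, changed by -0.06, -0.08 and -0.07.

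**Figure D2:**
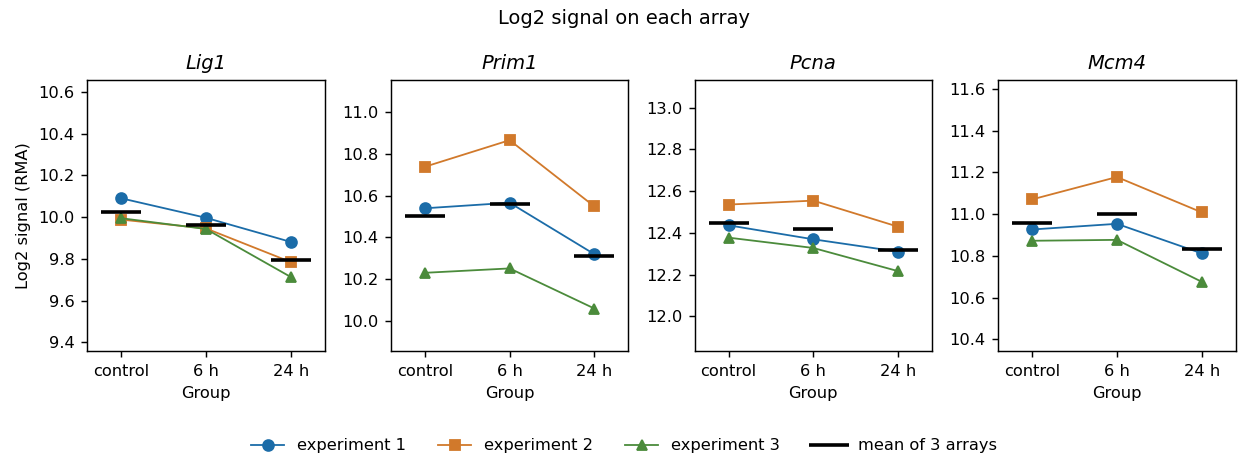
Log2 level per array of the genes called in any comparison (*Lig1*, *Prim1*, *Pcna* and *Mcm4*), by group, with a line joining the arrays of 1 experiment and a black bar at the mean of 3 arrays. Within each experiment the 24 h array was the lowest of the 3 for all 4 genes, and only *Lig1* had its 24 h arrays below every control array.

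None of the 13 licensing and helicase genes passed the test at 24 h, although all 13 log2 changes were below 0, with a median of -0.12 and a range of -0.17 to -0.05. At an unadjusted p under 0.05, 11 of them were lower in the same limma fit (84.6%, against 6.86% of all genes). Likewise 11 were lower in all 3 experiments (84.6%, against 9.31% of all genes). The nearest to the threshold was *Cdt1*, the loading factor, at -0.12 (limma, adjusted p = 0.0552). *Cdc6*, its partner in loading the helicase, had the largest change at -0.17 (limma, adjusted p = 0.218). It stood at 8.06, 8.35 and 8.08 in the control, 7.94, 8.32 and 8.12 at 6 h, and 7.74, 8.28 and 7.96 at 24 h, so that the decrease in experiment 1 (-0.32) exceeded those in experiments 2 and 3 (-0.07 and -0.13).

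The 6 subunits of the Mcm ring lay close together, from -0.14 in *Mcm3* to -0.05 in *Mcm2*, with *Mcm5*, *Mcm6* and *Mcm7* at -0.11, -0.13 and -0.09. *Mcm2* had the smallest change of the licensing genes and stood at 10.43, 10.43 and 10.00 in the control, 10.42, 10.42 and 10.15 at 6 h, and 10.21, 10.35 and 10.15 at 24 h. It was lower at 24 h in experiments 1 and 2 and higher in experiment 3. *Mcm4* stood at 10.93, 11.07 and 10.87 in the control, 10.95, 11.18 and 10.88 at 6 h, and 10.81, 11.01 and 10.68 at 24 h. It was lowest at 24 h in every experiment, with a change of -0.12 against the control (limma, adjusted p = 0.1). *Mcm10*, a scaffold of the active helicase, changed by -0.15, *Cdc45* by -0.11, and the GINS subunits *Gins1* and *Gins2* by -0.07 and -0.12. *Dtl*, the adaptor through which Cdt1 is degraded in S phase, changed by -0.11.

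The nucleotide supply genes encode both subunits of ribonucleotide reductase (*Rrm1*, *Rrm2*) and thymidylate synthase (*Tyms*), and none of the 3 passed the test. At an unadjusted p under 0.05 in limma 1 was lower, against 6.86% of all genes, and 3 genes are too few to read a share from. *Rrm2*, the subunit whose mRNA is known to follow S phase, stood at 10.91, 11.04 and 10.38 in the control, 11.01, 11.02 and 10.43 at 6 h, and 10.66, 10.84 and 10.32 at 24 h. It was lower at 24 h in all 3 experiments, by -0.17 on average (limma, adjusted p = 0.139), while *Rrm1* changed by -0.04. *Tyms* also has 1 probe set that carries several symbols and was left out. The gene was read by a dim probe set, at 5.09, 5.29 and 4.80 in the control, 5.43, 5.29 and 4.82 at 6 h, and 4.97, 5.29 and 4.82 at 24 h. Its groups overlapped, and its interval, -0.26 to 0.19, had the highest upper end of all 38 genes.

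The 5 chromatin genes measured had a median change of -0.08, and none passed the test. At an unadjusted p under 0.05 in limma 1 was lower, against 6.86% of all genes, and 5 genes are too few to read a share from. *Chaf1b*, a subunit of the assembly factor that places histones on new DNA, had the largest change at -0.11 (limma, adjusted p = 0.385). It stood at 7.51, 7.57 and 7.36 in the control, 7.47, 7.57 and 7.27 at 6 h, and 7.49, 7.43 and 7.20 at 24 h, lower than the control in all 3 experiments with overlapping groups. *Dnmt1*, which copies DNA methylation onto the new strand, stood at 9.89, 9.94 and 9.78 in the control, 10.05, 10.17 and 9.79 at 6 h, and 9.84, 9.94 and 9.76 at 24 h. Its change at 24 h was -0.02 (95% interval -0.13 to 0.09), and the array at 6 h was the highest of its experiment each time. *Uhrf1*, which guides Dnmt1 to new DNA, changed by -0.08, *Hells*, a chromatin remodeller, by -0.10, and *Slbp*, which binds histone mRNAs, by -0.02.

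None of the 4 checkpoint and repair genes or the 3 S-phase entry genes passed the test. At an unadjusted p under 0.05 in limma 2 and 0 of them were lower, against 6.86% of all genes, and both groups are too small to read a share from. *Clspn*, an adaptor of the replication checkpoint, stood at 7.54, 7.74 and 7.33 in the control, 7.50, 7.76 and 7.33 at 6 h, and 7.18, 7.56 and 7.33 at 24 h. Its change of -0.18 (limma, adjusted p = 0.33) came from experiments 1 and 2, as experiment 3 differed by less than 0.01. *Blm*, a helicase, stood at 7.17, 7.57 and 7.05 in the control, 7.29, 7.64 and 7.05 at 6 h, and 7.05, 7.54 and 7.05 at 24 h, for a change of -0.05. For both genes the 3 arrays of experiment 3 were equal to 2 decimals, and *Usp1*, a deubiquitinase of the clamp, changed by -0.07. *Exo1*, a nuclease, had the widest spread of the group, at -0.45, -0.06 and 0.00 in experiments 1 to 3.

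*E2f8*, a repressor within the E2F family, stood at 8.37, 8.71 and 8.16 in the control, 8.44, 8.80 and 8.22 at 6 h, and 8.10, 8.62 and 8.22 at 24 h. Its change was -0.10 (limma, adjusted p = 0.609), lower in experiments 1 and 2 and higher in experiment 3. *Ccne1* stood at 7.61, 7.73 and 7.77 in the control, 7.60, 7.72 and 7.73 at 6 h, and 7.70, 7.79 and 7.73 at 24 h, and its change of 0.04 had an interval of -0.05 to 0.13. *Ccne2*, the other cyclin E gene, changed by -0.38, -0.12 and 0.24 in experiments 1 to 3. The cyclin E genes moved in opposite directions in each experiment, and neither passed the test.

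**Figure D3:**
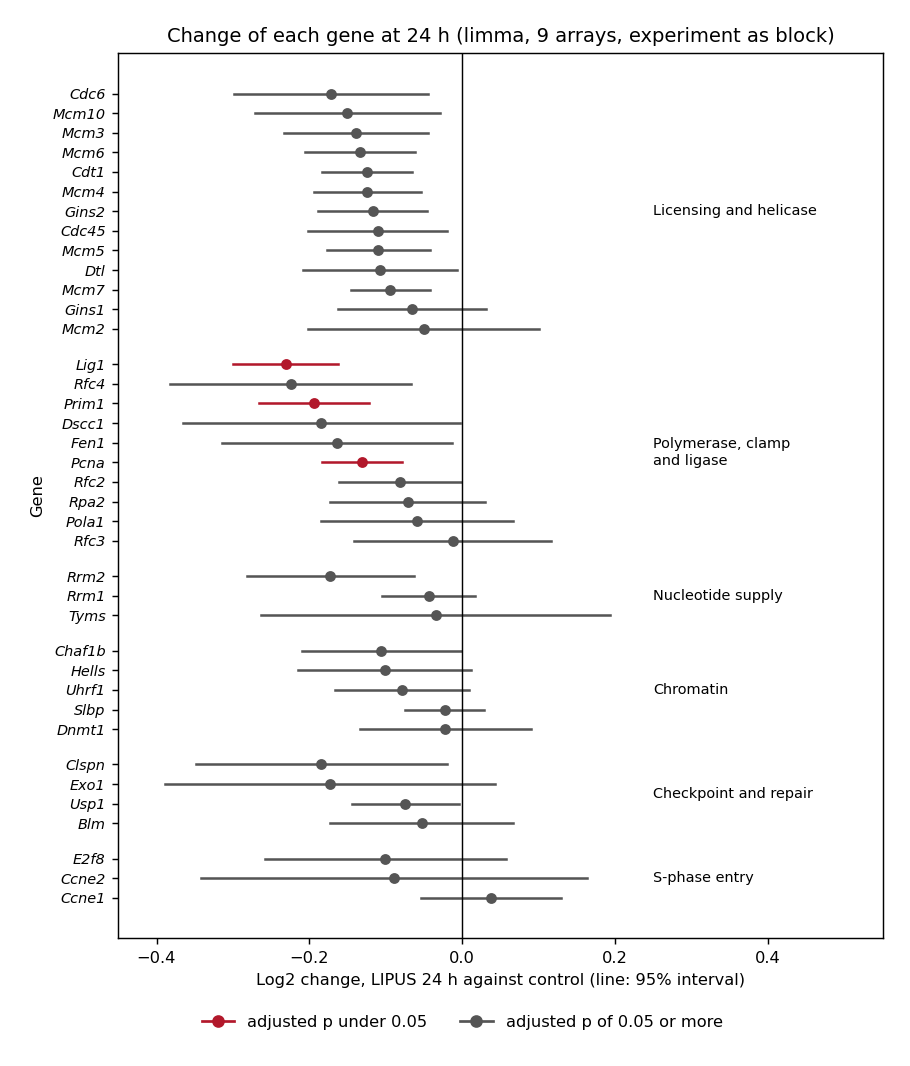
Log2 change at 24 h against the control for each of the 38 genes, grouped by role, as points with 95% intervals from limma (lines), and with the 3 genes of adjusted p under 0.05 in red. The changes run from -0.23 (*Lig1*) to 0.04 (*Ccne1*), and every interval lies inside a 1.5-fold change in either direction.

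Across the 38 genes, 22 were lower at an unadjusted p under 0.05 in the limma fit (57.9%, against 6.86% of all genes), and none was higher. Likewise 22 were lower in all 3 experiments (57.9%, against 9.31% of all genes), and 20 genes met both criteria. An equal value counts as neither lower nor higher, and equal values were more common over all genes. In experiments 2 and 3, 7993 and 5004 of the 18193 genes were equal to the control, against 3 and 5 of the 38. No share over genes without equal values was taken. The median change was -0.15 in experiment 1, -0.08 in experiment 2 and -0.04 in experiment 3, with 37, 34 and 25 genes lower and 1, 1 and 8 higher. The 95% interval of each of the 38 genes excluded a 1.5-fold change, the lowest limit being -0.39 (*Exo1*). None of the 38 genes reached a ratio of 1.5 in all 3 experiments, against 0.131% of all probe sets in either direction.

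At 6 h none of the 38 genes was called by limma, as for all probe sets (0%), and the smallest adjusted p was 0.959. At an unadjusted p under 0.05, 1 gene was higher (2.63%, as for 2.63% of all genes) and none was lower (1.17% of all genes were lower), and the methods' t-test called none. The gene that was higher was *Dnmt1*, at 0.13 ± 0.05 (SE; limma, unadjusted p = 0.0256). The median change was -0.01 against 0.00 over all genes, with 22 genes below 0 (57.9%, against 49.1% of all genes) and 16 above. In all 3 experiments 4 genes were lower (10.5%, against 4.75% of all genes) and 5 were higher (13.2%, against 7.90% of all genes). Equal values count in neither direction. In experiments 2 and 3 they made up 8139 and 7152 of 18193 genes, against 8 and 9 of the 38, so these shares are not on an equal footing. The changes ran from -0.08 (*Cdc45*) to 0.13, and all 38 intervals excluded a 1.5-fold change. The called genes of 24 h stood at -0.06 (*Lig1*), 0.06 (*Prim1*) and -0.03 (*Pcna*) at 6 h.

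The 24 h and 6 h cultures were compared directly. The control arrays do not enter these changes, but they enter the spread behind the p-values, and none of the 38 genes was called when only the 6 arrays compared were fitted. Here too 3 of the 38 genes were lower and none was higher (7.89%, against 1.49% of all genes, 0.879% of all probe sets and 1.75% of the brighter ones called lower, and 1.14% of all probe sets called higher). *Prim1* fell by 0.25 on the log2 scale (SE 0.03; limma, adjusted p = 0.0105), *Lig1* by 0.17 (SE 0.03; limma, adjusted p = 0.0392) and *Mcm4* by 0.17 (SE 0.03; limma, adjusted p = 0.0407), and each was lower in all 3 experiments. The arrays of *Lig1* at 24 h were all below those at 6 h (0.786% of all genes were apart in this direction), while those of *Prim1* and *Mcm4* overlapped. The second probe set of *Mcm4* changed by -0.28 but did not pass the test (limma, adjusted p = 0.591). The median change was -0.11, and 36 genes were below 0 (94.7%, against 47.7% of all genes). At an unadjusted p under 0.05 in limma 20 were lower (52.6%, against 6.87% of all genes), and 21 were lower in all 3 experiments (55.3%, against 9.54% of all genes). Equal values, which never count as lower, were again more common over all genes. In experiments 2 and 3 they made up 7746 and 7668 of 18193 genes, against 4 and 12 of the 38. Without experiment 1 or without experiment 2 none of the 38 was called. Without experiment 3 there were 5, with *Prim1* among them but not *Mcm4* or *Lig1* (limma, adjusted p = 0.0527 and 0.0946). With quantile normalisation the count stayed at 3, and again *Prim1* was called and *Mcm4* and *Lig1* were not (limma, adjusted p = 0.0597 and 0.0596). With the mean of a gene's probe sets the count was 2, and there *Lig1* was called (limma, adjusted p = 0.0186). In that setting *Prim1* and *Mcm4* were not called (limma, adjusted p = 0.194 and 0.121). No share over all genes was taken under these settings. This comparison and that with the control share the 24 h arrays. How long the mock control was cultured is not given in the sources used here, so time in culture and LIPUS cannot be told apart.

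Where a gene had several probe sets, the others mostly pointed the same way. Of 56 further probe sets for 33 of the genes, 41 were below 0 at 24 h, 14 above and 1 at 0. Of all 45037 probe sets, 22147 were below 0. The bright ones among the 56, with a mean log2 level of at least 8, were below 0 in 21 of 23, with a median of -0.11. The share below 0 over all probe sets that bright was not taken. Of the 56, limma called 1 at 24 h, a probe set of *Mcm3* at -0.25 (adjusted p = 0.0346), and 1 at 24 h against 6 h, a probe set of *Dnmt1* at -0.17 (adjusted p = 0.0348). Of all probe sets, 0.933% and 0.879% were called lower in these comparisons, and 1 of 56 is too few to set against that. Against the control at 24 h that probe set of *Dnmt1* was at -0.11 (limma, adjusted p = 0.134) and lower in all 3 experiments, where the brighter one described above was at -0.02.

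Other replication and cell cycle genes were read in the same fit. Of 72 further genes of replication, its regulation and S-phase repair, 69 were measured, and 6 were lower at 24 h by limma (8.70%) and 1 higher, with a median of -0.08. The lower ones included *E2f7*, a repressor paired with *E2f8*, at -0.43, *Asf1b*, a histone chaperone, at -0.38, *Gmnn*, which encodes the inhibitor of Cdt1, at -0.28, and *Tk1*, thymidine kinase, at -0.28. The other two were *Brca1*, a repair gene, and *Dbf4*, the activating subunit of a replication kinase, at -0.29 and -0.27, and the gene that rose was *Orc4*, of the origin recognition complex, at 0.15. In genes of G2 and M phase, the following stages of the cycle, 38 of 62 were lower at 24 h (61.3%) and none was higher, with a median of -0.25. The largest of these changes were those of *Cenpf* (-0.48), *Hmmr* (-0.43), *Cdca8* (-0.40) and *Ccnb2* (-0.40), which act on the mitotic spindle and at entry into mitosis. The difference between these lists was not tested, and they are set side by side as counts. Of 10 reference genes limma called none in either direction, with a median of 0.01. At an unadjusted p under 0.05 in limma 1 of them was lower, against 6.86% of all genes.

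**Figure D4:**
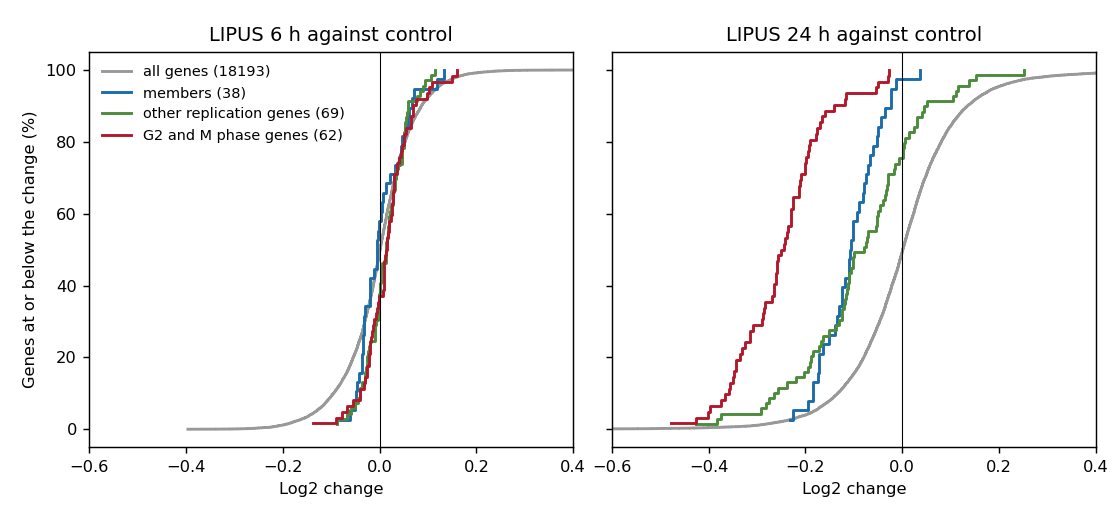
Cumulative share of genes (%) against log2 change from the control at 6 h (left) and 24 h (right) for the 38 replication and S-phase genes (members), the 69 other replication genes, the 62 genes of G2 and M phase and all 18193 genes. The curves lie together at 6 h, and at 24 h the medians are -0.11, -0.08, -0.25 and 0.00.

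Markers of the cells in the cultures were read on the same arrays. The 9 osteoblast markers measured were not called by limma in any comparison. Their 24 h changes ran from -0.08 to 0.50. At an unadjusted p under 0.05 in limma 3 of them were higher at 24 h, as were 1837 of all 18193 genes. *Runx2*, *Bglap* and *Spp1* had no probe set carrying their symbol alone. *Col1a2*, *Postn*, *Sparc* and *Col1a1*, matrix genes of this lineage, had control means of 14.2, 13.7, 13.6 and 12.7. The late marker *Ibsp* was near the lower end of the array at 3.25 in the control, and *Alpl* stood at 5.02. Among markers of other cell types, 2 of 6 epithelial genes were lower at 24 h, *Krt14* at -0.98 and *Cdh1* at -0.75, and the summed linear level of the list was 1123 to 1361 in the control, 1116 to 1345 at 6 h and 689.8 to 883.7 at 24 h. The macrophage gene *Lyz2*, 1 of 6, was higher at 0.49, with sums of 173.5 to 211.5, 173 to 214.1 and 197 to 276. Limma called no gene of the adipocyte (4), myoblast (5) or endothelial (5) lists. At 24 h 1, 0 and 0 of them were lower at an unadjusted p under 0.05 in limma, against 6.86% of all genes. The part of these markers in the lower replication transcripts was not tested.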

How the data were processed

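Total RNA (500 ng per sample) was hybridised to 1-colour Affymetrix mouse arrays, 3 per group. The deposited values are log2 intensities that the authors normalised by RMA, a method that corrects background, equalises arrays and summarises each probe set. Array medians were 4.89 to 4.93 in experiment 1, 5.15 in experiment 2 and 4.97 to 5.01 in experiment 3, so they were not equal between experiments. Of 45101 probe sets, 64 controls were left out and 45037 tested. GEO's annotation gave 34945 a single symbol, 932 several and 9160 none. A gene was read by its single-symbol probe set with the highest mean over the 9 arrays. The members and gene lists were chosen with earlier results of these data known.

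All 9 arrays were fitted with limma 3.58.1 (R 4.3.3), with an intensity trend and the experiment number as a block (4 residual degrees of freedom), adjusted by Benjamini-Hochberg over all probe sets at 0.05. The block rests on the study's ratios within experiments, and deviations of same-numbered arrays from their group means correlated at 0.701 to 0.933. Standard errors share the spread of all 9 arrays. Nothing in the labels states that replicates were separate cultures. The p-values therefore measure only the spread left between these arrays after the block, and the number of arrays limits the precision. Every gene called, and the largest and smallest change of each role, were given by array. Alternatives covered the block, trend, samples, normalisation, dim probe sets, probe set choice and the methods' t-test. Levels were not compared between genes.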

Additional observations from a re-analysis of the deposited data

Results flagged for a closer look

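The changes at 6 h and at 24 h, each against the control, differed for 3 of the 38 genes when the difference itself was tested in the limma fit, which is the same test as 24 h against 6 h. The difference, 24 h minus 6 h, was -0.25 for *Prim1* (0.06 at 6 h and -0.19 at 24 h; adjusted p = 0.0105 by limma), -0.17 for *Lig1* (-0.06 and -0.23; adjusted p = 0.0392 by limma) and -0.17 for *Mcm4* (0.05 and -0.12; adjusted p = 0.0407 by limma). Each was lower at 24 h than at 6 h in 3 of 3 experiments. With quantile normalisation the difference of *Prim1* passed the test and those of *Lig1* and *Mcm4* did not (limma, adjusted p = 0.0596 and 0.0597). With the mean of a gene's probe sets the difference of *Lig1* passed (limma, adjusted p = 0.0186). Those of *Prim1* and *Mcm4* then did not (limma, adjusted p = 0.194 and 0.121). Time in culture and LIPUS cannot be told apart in these differences. Groups of 3 arrays were too small to look for single arrays that stood apart.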

How the results depend on the processing

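The median change of the 38 genes at 24 h stayed below 0 in each alternative for which it was taken. It was -0.08 to -0.12 when 1 experiment was left out, -0.13 with quantile normalisation and -0.08 with the mean of a gene's probe sets. Settings that leave the log2 changes as they are, such as no block, no trend or bright probe sets alone, could not move it. The counts of called genes, 3 at 24 h against the control and 3 against 6 h, did not hold. Both were 0 without the replicate block, without the intensity trend, with only the 6 arrays compared, by the methods' t-test after adjustment and by the 1.5-fold rule. By the unadjusted t-test both were 1, and with bright probe sets alone both were 6. Leaving out 1 experiment gave 0 to 6 at 24 h and 0 to 5 against 6 h. Quantile normalisation gave 5 at 24 h. Except for the 1.5-fold rule, no share over all genes or probe sets was taken under these settings. The counts can therefore not be set against a background. Why the counts changed was not tested, beyond the fewer arrays or tests that some of these settings have. The median at 6 h was -0.0249 with quantile normalisation, -0.0182 with the mean of a gene's probe sets, and -0.0103 to 0.0061 with 1 experiment left out. Uncalled changes at 24 h ranged, with 1 experiment left out, from -0.1531 to 0.0352 in *Mcm2*, -0.0918 to 0.0539 in *Rfc3*, -0.0629 to 0.0103 in *Tyms* and -0.254 to 0.0589 in *Ccne2*, and were positive without experiment 1. With the mean of probe sets they were 0.002 in *Rfc3* and 0.049 in *Tyms*.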

Other observations

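In the control cells, 35 of the 38 genes were lowest in experiment 3 and 35 were highest in experiment 2. The median level of the 38 genes was 9.18, 9.29 and 8.93 in the control arrays of experiments 1 to 3, while the medians of all probe sets on those arrays were 4.89, 5.15 and 5.01. The widest range between control arrays was 0.989 and the narrowest, that of *Lig1*, was 0.102. In 19 of the 38 genes the 24 h array was the lowest of its experiment all 3 times (against 6.18% of all genes). A 24 h array equal to another array of its experiment is not counted as the lowest, and equal values were more common over all genes.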
